A study of Danio rerio with 8 samples.

Results

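The epicardium is the mesothelial layer that covers the heart. It signals to the myocardium beneath it and, in many vertebrates, gives rise to fibroblasts and mural cells. Tcf21 is a basic helix-loop-helix transcription factor of this layer and of other mesenchyme, and in zebrafish its gene also marks the cells themselves. The comparison described here is between epicardial cells (EpiCs) of tcf21-/- and tcf21+/+ larvae at 96 hpf, in all gene groups other than the secreted factors and the matrix genes. It covered the 16077 genes with a mean normalized read count of at least 10 over the 8 libraries, out of 21286 genes in the table, and 4 of the 8 libraries.

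Epi-Mut denotes tcf21-/- EpiCs and Epi-WT denotes tcf21+/+ EpiCs, with 2 libraries each. CM-Mut and CM-WT denote the cardiomyocytes (CMs) of the same genotypes, also with 2 libraries each, and entered the fit to share 1 estimate of the spread. All larvae carried the myl7:mCherry-CAAX reporter of CMs and the TgBAC(tcf21:NLS-EGFP) reporter of EpiCs. EpiCs were sorted for EGFP, and cells that also carried mCherry were kept with them, so that part of the sorted population expressed a myocardial transgene. The mutant allele is a frameshift that is predicted to truncate the protein. Mutants were offspring of intercrossed tcf21+/- fish and were picked by their missing head muscles and a substantial epicardial cover of the ventricle. The wild-type larvae had tcf21+/+ parents from the same families. Parentage and genotype thus coincide and cannot be told apart, and the mutants represent those with well covered ventricles. The sorting sessions are not given for single libraries. In sorted bulk samples, fewer cells of a kind and less RNA per cell cannot be told apart.

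The 4 EpiC libraries held an estimated 9.86 to 11.4 M reads counted on genes, and the 4 CM libraries 6.44 to 9.39 M. The SD of the log2 difference between 2 replicates of a group lay between 0.903 and 1.3 across genes. *tcf21* (ENSDARG00000036869) was read at 1600 and 1851 in Epi-WT and at 1636 and 1454 in Epi-Mut, so that the genotypes overlapped (log2FC −0.16, SE 0.54, adjusted P=0.984). A frameshift allele need not lower the level of its own mRNA, so these values are no check of the genotype labels.

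Markers of EpiCs were abundant in both genotypes. Of 21 epicardial markers, 0 were called different between the genotypes, and their median log2FC was −0.04 against −0.01 over all genes tested. Their values leaned to the lower side, with 15 of 21 negative and with both Epi-Mut libraries below both Epi-WT libraries in 33.3% and above in 4.76%, against 21.5% and 21.6% over all genes. *tbx18*, a T-box factor of the epicardium, had 2871 and 3076 in Epi-WT and 2647 and 2486 in Epi-Mut. *wt1b*, a zinc finger factor of mesothelia, had 1110 and 1067 against 1183 and 980. *aldh1a2*, the enzyme that makes retinoic acid, had 3590 and 4042 against 3473 and 2899. Its SE was 1.52, as the spread was estimated over all 8 libraries and CM values were 71 and 0 in CM-WT and 22 and 19 in CM-Mut. Markers that vary near 0 in CMs were thus hard to call, and the lack of a call says little about them in EpiCs. Groups without overlap included *bnc2*, a zinc finger factor (3567 and 3030 against 2548 and 2114), and *sema3d*, a semaphorin (1829 and 1695 against 1051 and 1447). The marker farthest from 0 was *itga4*, an integrin alpha subunit, with 1270 and 1082 in Epi-WT and 411 and 192 in Epi-Mut. Its libraries did not overlap, and its log2FC of −2.06 (SE 0.57) missed the threshold with an adjusted P of 0.31. In CMs *itga4* was listed at 0 in both CM-WT libraries and at 22 and 36 in CM-Mut, which was called higher (adjusted P=0.0332). The difference between the EpiC and the CM effect of *itga4* had an adjusted P of 0.0992.

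A gene was called when limma gave a P, adjusted by Benjamini–Hochberg across the 16077 genes, under 0.05 and an absolute log2FC of at least 0.59. In Epi-Mut 24 genes were lower, 0.149% of the genes tested, and 7 were higher, 0.0435%. Before adjustment, P was under 0.05 for 8.46% of the genes, with 4.29% lower and 4.17% higher. In all 31 called genes both Epi-Mut libraries lay outside the range of both Epi-WT libraries. Over all genes this was the case for 21.5% below and 21.6% above. A call at this threshold nearly requires such a lack of overlap in the same libraries, so it adds no support to the calls. Of the 31 genes, 6 belong to the pathway and cell type lists described further on. The calls were few and rested on small groups. Of the 24 and 7 genes, 21 and 7 were still called without CM-WT replicate 1 or without CM-WT replicate 2. Without Epi-WT replicate 1, CM-Mut replicate 1 or CM-Mut replicate 2, 1 lower gene and 0 higher genes remained. Without Epi-WT replicate 2, Epi-Mut replicate 1 or Epi-Mut replicate 2, and with the EpiC libraries alone, 0 remained. The log2FC of all 31 genes kept its sign in each of 20 alternative fits. Where a library was left out or only the spread estimate changed, the lack of overlap fixed this sign beforehand. It therefore adds no support to the calls.

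**Figure D1:**
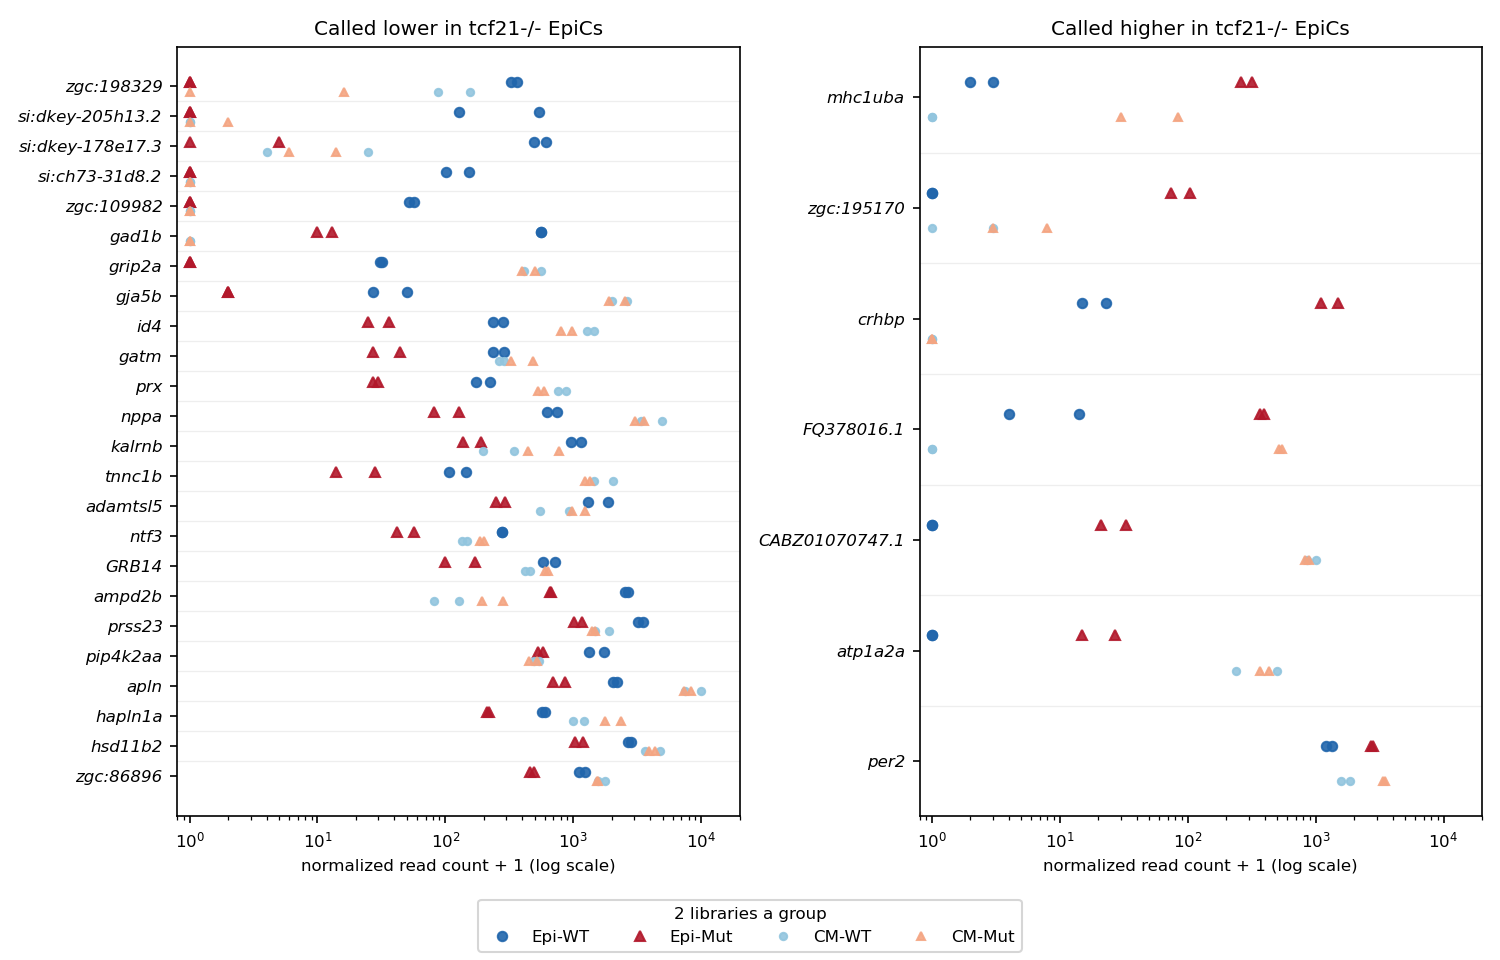
Normalized read count plus 1 (log scale) of the 24 genes called lower (left) and the 7 called higher (right) in tcf21-/- EpiCs, with 1 point for each of the 8 libraries, EpiCs in dark and CMs in light colours. Epi-WT and Epi-Mut points do not overlap for any of the 31 genes, and 5 of the 24 genes on the left sit at a value of 0 in both Epi-Mut libraries.

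Some of the genes that fell in tcf21-/- EpiCs had higher values in CMs than in EpiCs. Of the 24 genes, 11 had a higher mean in CM-WT than in Epi-WT, 45.8% against 46.7% of all genes tested, so the share was close to that of all genes. *nppa* (ENSDARG00000052960, chromosome 8, 48613040 to 48617664), which encodes atrial natriuretic peptide (coordinates in this section are those of GRCz11 in the deposited annotation), had 740 and 618 in Epi-WT and 127 and 80 in Epi-Mut. Its level in CMs was 4939 and 3376 in CM-WT and 3573 and 3065 in CM-Mut. Both mutant EpiC libraries were far below both wild-type ones, while the CM libraries overlapped, with a log2FC of −2.73 in EpiCs (SE 0.27, adjusted P=0.0192) and of −0.30 in CMs (adjusted P=0.616). *tnnc1b* (ENSDARG00000037539, chromosome 23, 20110086 to 20112596), a troponin C of the contractile apparatus, had 144 and 106 in Epi-WT and 13 and 27 in Epi-Mut. Its log2FC was −2.65 (SE 0.38, adjusted P=0.048).

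*gja5b* (ENSDARG00000069450, chromosome 1, 47414734 to 47431453), a connexin of gap junctions, had 49 and 26 in Epi-WT and 1 and 1 in Epi-Mut (adjusted P=0.0192). Its values in CMs were between 1891 and 2619. *grip2a* (ENSDARG00000087187, chromosome 8, 7205524 to 7308373), a scaffold protein with PDZ domains that in mammals binds glutamate receptors, had 31 and 30 in Epi-WT and 0 in both Epi-Mut libraries, at least 12.4-fold lower (adjusted P=0.0192). The bound sets the mutant at a floor of 3 reads per library. *prx* (ENSDARG00000017246, chromosome 18, 46211210 to 46241856), the PDZ protein periaxin known from mammalian Schwann cells, had 224 and 174 in Epi-WT and 26 and 29 in Epi-Mut (log2FC −2.80, SE 0.29, adjusted P=0.0192). *gja5b*, *grip2a* and *prx* had lower values in EpiCs than in CMs of either genotype, and none was called in CMs.

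Most other myocardial genes were not called. Of 32 cardiomyocyte genes in the list, 2 were called lower, *nppa* and *tnnc1b*, and 0 were called higher. Before adjustment, with P under 0.05, 7 were lower and 1 was higher, against 4.29% and 4.17% of all genes. In the list 22 of 32 were negative. Both Epi-Mut libraries were below both Epi-WT libraries in 37.5% and above in 3.12%, against 21.5% and 21.6% of all genes. The median log2FC was −0.09, and the SD of the list between replicates was 0.323. The summed value of the list was 38608 and 25809 in Epi-WT and 32399 and 28748 in Epi-Mut, against 187078 to 227927 in CMs. The EpiC genotypes thus overlapped in the sum of these 32 genes, which is not a measure of all myocardial RNA. *myl7*, the gene whose promoter drives the myocardial reporter, had 1333 and 1377 against 1327 and 1222. *tnnt2a*, cardiac troponin T, had 1355 and 1470 against 1361 and 1300. *ttn.2*, a titin gene, had 3110 and 1089 against 2008 and 1629. The largest differences after the called pair were those of *tbx5a*, a T-box factor of the heart, and *myh6*, the atrial myosin heavy chain. *tbx5a* had 73 and 64 in Epi-WT and 16 and 21 in Epi-Mut (log2FC −1.84, SE 0.28, adjusted P=0.0565). *myh6* had 540 and 229 against 88 and 130 (log2FC −1.71, SE 0.36, adjusted P=0.149). The part that myocardial RNA or atrial cells took in these differences was not tested.

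*id4* (ENSDARG00000045131, chromosome 16, 9977858 to 9980402) encodes a helix-loop-helix protein that lacks a basic region and binds basic helix-loop-helix factors. It had 234 and 282 in Epi-WT and 24 and 35 in Epi-Mut, with no overlap (log2FC −3.10, SE 0.29, adjusted P=0.0192). CMs had more *id4* than EpiCs, with 1452 and 1283 in CM-WT and 808 and 979 in CM-Mut. *GRB14* (ENSDARG00000068280, chromosome 9, 50316921 to 50340720), an adaptor that in mammals binds the insulin receptor, had 581 and 717 in Epi-WT and 170 and 99 in Epi-Mut (log2FC −2.31, SE 0.30, adjusted P=0.0345). *kalrnb* (ENSDARG00000063538, chromosome 6, 9289802 to 9455966), a kalirin gene, had 1158 and 961 against 189 and 136 (log2FC −2.71, SE 0.37, adjusted P=0.0465). In CMs the 2 CM-Mut values of *kalrnb*, 444 and 780, were above the 2 CM-WT values, 344 and 195, and the CM difference was not called (adjusted P=0.3). *pip4k2aa* (ENSDARG00000003776, chromosome 24, 17068724 to 17127833), a phosphoinositide kinase, had 1743 and 1336 against 527 and 576 (log2FC −1.47, SE 0.21, adjusted P=0.048).

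*gad1b* (ENSDARG00000027419, chromosome 6, 3827751 to 3863452), a glutamate decarboxylase that makes the transmitter GABA, had 562 in both Epi-WT libraries and 9 and 12 in Epi-Mut. It was at 0 in all 4 CM libraries, and its log2FC in EpiCs was −5.63 (SE 0.73, adjusted P=0.0345). *gatm* (ENSDARG00000036239, chromosome 18, 35725 to 46010), which catalyses the committed step of creatine synthesis, had 289 and 237 in Epi-WT and 26 and 43 in Epi-Mut (log2FC −2.93, SE 0.38, adjusted P=0.0345). *gatm* values in CMs were 286 and 263 in CM-WT and 327 and 486 in CM-Mut, where it was not called (adjusted P=0.537). *ampd2b* (ENSDARG00000029952, chromosome 8, 25247245 to 25293690), an AMP deaminase of purine metabolism, had 2672 and 2524 against 665 and 658 (log2FC −1.97, SE 0.29, adjusted P=0.048). *hsd11b2* (ENSDARG00000001975, chromosome 7, 35112052 to 35126374), which inactivates cortisol, had 2811 and 2695 against 1195 and 1029 (log2FC −1.31, SE 0.17, adjusted P=0.0357). Replicates of *ampd2b* and *hsd11b2* lay close together in each genotype. *ampd2b* overlaps *gnat2* on the other strand, and the library kit does not mark strand. The organic cation transporter gene *slc22a2* had 518 and 556 in Epi-WT and 19 and 5 in Epi-Mut. It narrowly missed the threshold (adjusted P=0.0524) and was at 0 in every CM library.

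Besides *nppa*, the genes called lower included 5 others for secreted or matrix proteins. *apln* (ENSDARG00000053279, chromosome 14, 33722950 to 33757715), the ligand of the apelin receptor, had 2063 and 2194 in Epi-WT and 863 and 692 in Epi-Mut (adjusted P=0.0345). *prss23* (ENSDARG00000055786, chromosome 14, 30802465 to 30808174), a serine protease, had 3205 and 3544 against 1167 and 1015 (adjusted P=0.0192). The others were *adamtsl5*, an ADAMTS-like protein whose gene overlaps *serinc4* on the other strand (log2FC −2.53), the neurotrophin gene *ntf3* (log2FC −2.50) and *hapln1a*, which links hyaluronan to proteoglycans (log2FC −1.45). *hapln1a* had 604 and 566 in Epi-WT and 209 and 219 in Epi-Mut. In CMs it had 1203 and 991 in CM-WT and 2351 and 1781 in CM-Mut, a CM log2FC of 0.91 with an adjusted P of 0.16. The difference between the effects in EpiCs and CMs had an adjusted P of 0.0992 for *hapln1a* and of 0.0992 for *ampd2b*, so neither passed.

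Of the called genes, 6 that fell are known mainly by clone names. *zgc:198329* (ENSDARG00000076981, chromosome 16, 11558868 to 11569729), annotated as a membrane protein, had 365 and 326 in Epi-WT and 0 in both Epi-Mut libraries, at least 140.0-fold lower (adjusted P=0.0465). In CMs it had 87 and 154 in CM-WT and 0 and 15 in CM-Mut, which was not called (adjusted P=0.176). *si:dkey-205h13.2* (ENSDARG00000089429, chromosome 23, 26523998 to 26536055) had 127 and 544 against 0 and 0, at least 136.0-fold lower. *si:ch73-31d8.2* (ENSDARG00000097239, chromosome 16, 48753664 to 48756697) had 151 and 100 against 0 and 0, at least 51.0-fold lower. Both were called with an adjusted P of 0.0302 and were near 0 in CMs of either genotype. *zgc:109982* (ENSDARG00000099217, chromosome 6, 24076954 to 24087279), annotated to retinol and estrogen metabolism, had 51 and 56 against 0 and 0, at least 21.7-fold lower (adjusted P=0.048). *si:dkey-178e17.3* (ENSDARG00000058658, chromosome 8, 1873345 to 1909840), with an annotated scavenger receptor activity, had 614 and 490 against 4 and 0 (adjusted P=0.0465). *zgc:86896* (ENSDARG00000090369, chromosome 3, 36275633 to 36286650), annotated with the Arp2/3 complex that branches actin filaments, had 1230 and 1109 against 495 and 455 (log2FC −1.30, SE 0.17, adjusted P=0.0345). It overlaps *wipi1* on the same strand.

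The 7 genes that rose included 3 that also rose in tcf21-/- CMs. *mhc1uba* (ENSDARG00000075963, chromosome 19, 7072854 to 7101100), a classical MHC class I gene that presents antigen, had 2 and 1 in Epi-WT and 316 and 262 in Epi-Mut (adjusted P=0.0274). In CMs it was at 0 in CM-WT and at 29 and 83 in CM-Mut (adjusted P=0.0367). Class I genes differ between zebrafish haplotypes and have near-identical relatives, so these values are uncertain. *FQ378016.1* (ENSDARG00000108939, chromosome 5, 58487368 to 58512609), annotated as a cyclic nucleotide phosphodiesterase, had 3 and 13 in Epi-WT and 392 and 367 in Epi-Mut (log2FC 5.67, SE 0.70, adjusted P=0.0336). It was at 0 in both CM-WT libraries and at 512 and 547 in CM-Mut (adjusted P=0.0105). The third was the clock gene *per2*, described with its pathway.

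The remaining 4 rose in EpiCs and were not called in CMs. *crhbp* (ENSDARG00000024831, chromosome 21, 7823146 to 7832351), which encodes the secreted protein that binds corticotropin-releasing hormone, had 22 and 14 in Epi-WT and 1489 and 1092 in Epi-Mut. Its log2FC of 6.10 (SE 0.71, adjusted P=0.0296) was a rise from near 0, and *crhbp* was at 0 in every CM library. *atp1a2a* (ENSDARG00000010472, chromosome 2, 44203075 to 44255537), an alpha subunit of the sodium pump, was at 0 in Epi-WT and at 26 and 14 in Epi-Mut, at least 7.97-fold higher (adjusted P=0.048). *CABZ01070747.1* (ENSDARG00000117546, chromosome 10, 1982550 to 1991468), a long intergenic noncoding RNA, was at 0 in Epi-WT and at 32 and 20 in Epi-Mut, at least 10.4-fold higher (adjusted P=0.0192). Both were more abundant in CMs, with 238 to 501 for *atp1a2a* and 820 to 1011 for *CABZ01070747.1*. *zgc:195170* (ENSDARG00000076264, chromosome 22, 4797508 to 4798738) was at 0 in Epi-WT and at 103 and 73 in Epi-Mut, at least 35.1-fold higher (adjusted P=0.048). *si:ch73-256j6.5* and *CU570881.2* overlap it on the same strand, and shared reads were left out of the counts.

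**Figure D2:**
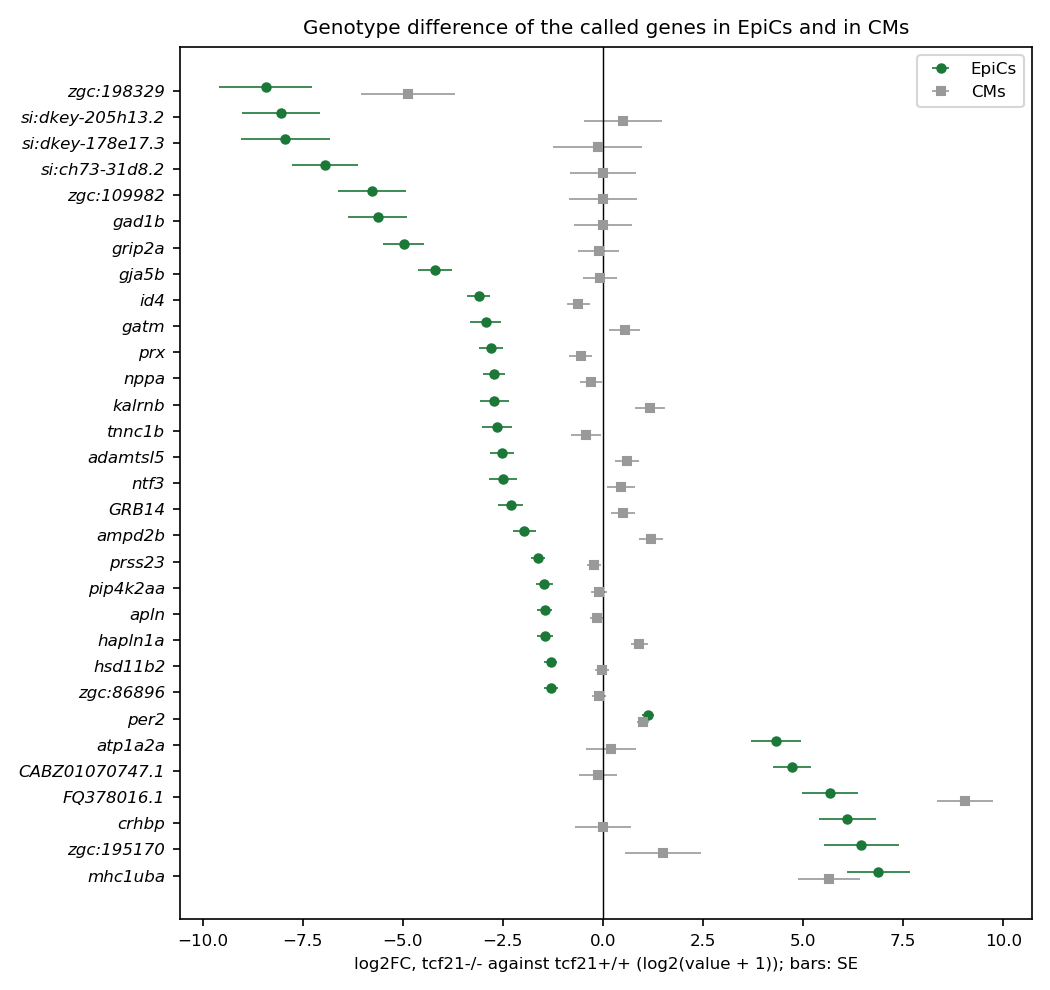
log2FC with its SE of the 31 called genes, tcf21-/- against tcf21+/+, in EpiCs (circles) and in CMs (squares), 2 libraries a group. *per2*, *mhc1uba* and *FQ378016.1* were called in both cell types in the same direction, and for genes listed at 0 in a group the pseudocount of 1 sets the size.

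Over all genes, 0 had an EpiC effect that differed from the CM effect after adjustment, with 1137 genes (7.07%) with P under 0.05 before adjustment. That a gene was called in EpiCs and not in CMs is therefore not shown to be a difference between the cell types. In CMs 59 genes were called between the genotypes (0.367%). No chromosome held more than 4 of the 31 genes, and chromosome 23, which holds *tcf21*, held 2 of them and 3.84% of the genes tested.

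The circadian clock of zebrafish cells is a transcriptional loop in which Clock and Bmal factors drive the *per* and *cry* repressors. In zebrafish tissues light reaches the clock directly, and *per2* and *cry1a* are known as light-induced genes. *per2* (ENSDARG00000034503, chromosome 2, 48309600 to 48375342) had 1334 and 1201 in Epi-WT and 2713 and 2787 in Epi-Mut. In CMs it had 1573 and 1853 in CM-WT and 3462 and 3353 in CM-Mut. The mutant libraries of both cell types were above all 4 wild-type libraries, with a log2FC of 1.12 in EpiCs (SE 0.15, adjusted P=0.0404) and of 1.0 in CMs (adjusted P=0.0434).

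Of 41 clock genes tested, *per2* was the only one called in EpiCs, 36 had a positive log2FC and 5 a negative one, where 51.4% of all genes were negative. In 34.1% of them both Epi-Mut libraries were above both Epi-WT libraries and in 0% below, against 21.6% and 21.5% of all genes. The median was 0.24, and 0.24 relative to genes of similar genomic span. Without Epi-WT replicate 2 the median was 0.07. In CMs the median of the clock genes was 0.31. *cry1a* had 1199 and 1184 in Epi-WT and 2076 and 2267 in Epi-Mut, and 2227 and 2239 in CM-WT and 3321 and 3205 in CM-Mut. Its groups did not overlap in either cell type, but the call was missed in EpiCs (log2FC 0.86, SE 0.14, adjusted P=0.0572) and in CMs (adjusted P=0.203). Other core clock genes that are abundant in EpiCs were closer to 0. The Bmal gene *arntl1a* had 807 and 701 against 825 and 827, *per1b* had 3110 and 2914 against 3064 and 3273, and *nr1d1*, a repressor of Bmal genes, had 3001 and 2257 against 2892 and 2961.

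**Figure D3:**
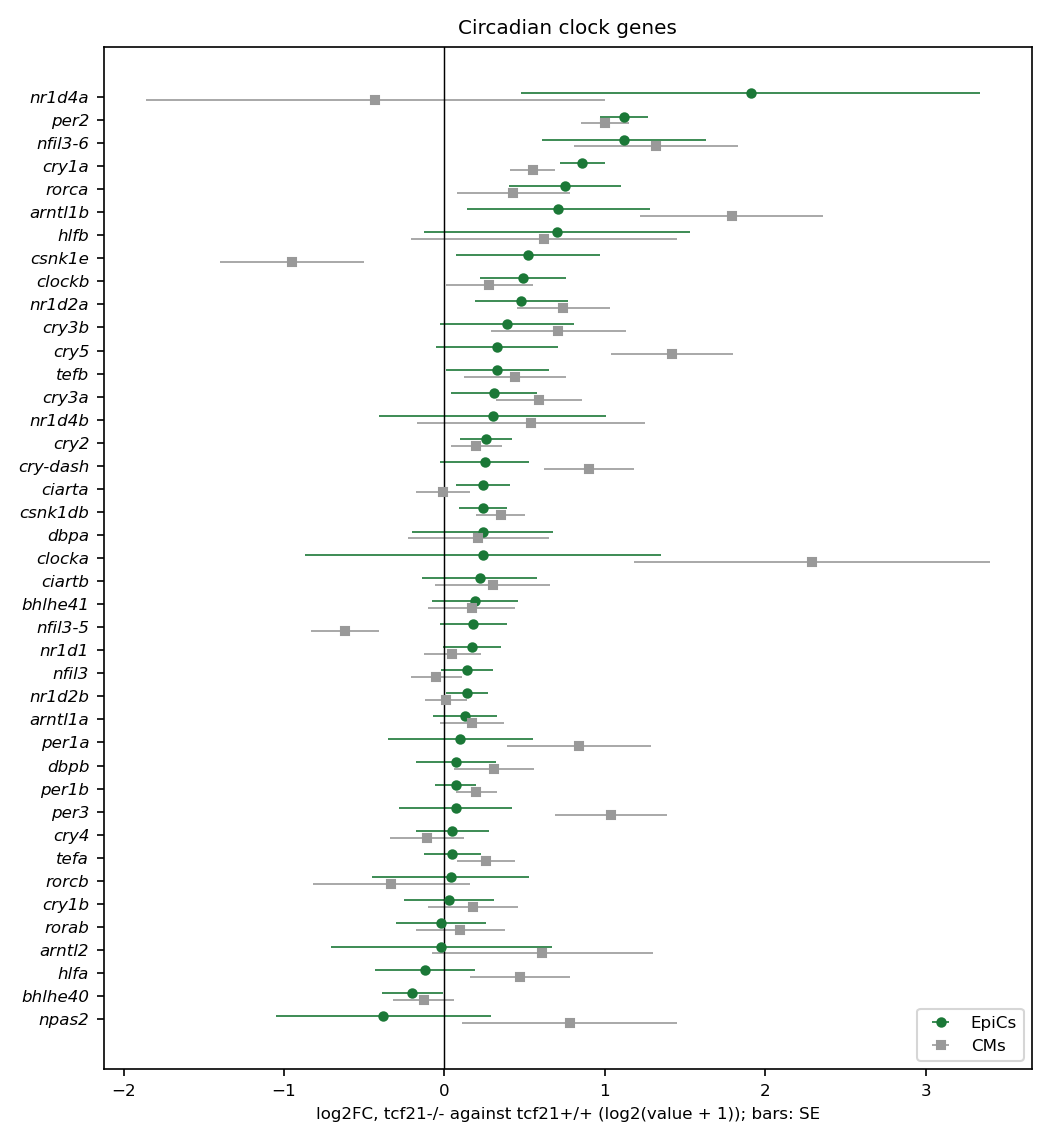
log2FC with its SE of the 41 circadian clock genes, tcf21-/- against tcf21+/+, in EpiCs (circles) and CMs (squares), 2 libraries a group. In EpiCs 36 of the 41 points lie to the right of 0, and *per2* and *cry1a* have the smallest errors among those above 0.8.

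Beyond these genes, 64 lists of pathways, families and cell types had members that were tested. Only 5 lists held a called gene. List members given below with their values alone, Epi-WT against Epi-Mut, were not called. The lists are described by counts and medians, which must be read against a dependence on genomic span. With genes split by span into 5 classes of equal size, over the class with the shortest span (67 to 6863 bp) the median log2FC was −0.12 and 65.6% were negative. Over the class with the longest span (50449 to 870427 bp) it was 0.10 and 41% were negative. In the shortest class Epi-WT replicate 2 was 0.16 above the mean of each gene and Epi-Mut replicate 2 was 0.12 below it, while Epi-WT replicate 1 (−0.02) and Epi-Mut replicate 1 (0.01) were near it. Without Epi-WT replicate 2 the medians of the shortest and longest classes were −0.05 and 0.02, and without Epi-Mut replicate 2 they were −0.05 and 0.08. The dependence was not limited to EpiCs. Between CM-Mut and CM-WT the median log2FC was −0.27 in the shortest class and 0.24 in the longest. The median relative to genes of similar span, given below for the lists that stood out, subtracts the median of the span class to which each gene belongs.

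**Figure D4:**
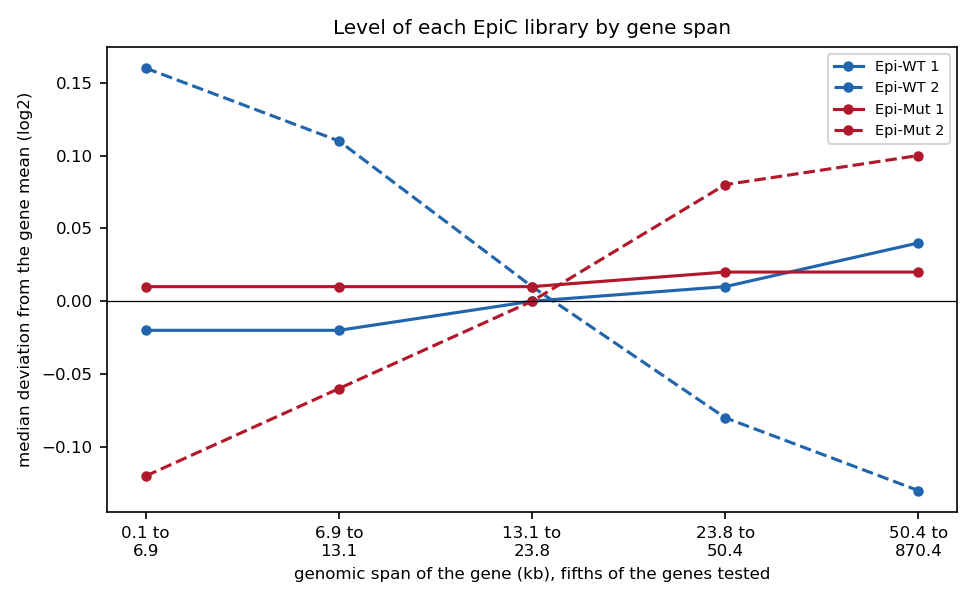
Median deviation of each EpiC library from the gene mean (log2) for genes in 5 classes of genomic span, shortest at the left. The 2 libraries with replicate number 1 stay within 0.04 of 0, whereas Epi-WT replicate 2 falls from 0.16 to −0.13 and Epi-Mut replicate 2 climbs from −0.12 to 0.10.

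Subunits of the respiratory chain and ATP synthase, which carry out oxidative phosphorylation, had a negative log2FC in nearly the whole list, and no gene passed the threshold. Their summed values overlapped between the genotypes, with 53496 and 62307 in Epi-WT and 54580 and 50009 in Epi-Mut. Of 82 subunits, 78 had a negative log2FC, 0 were called and 4 had P under 0.05 before adjustment, all lower. In 42.7% both Epi-Mut libraries were below both Epi-WT libraries, and in 0% above, against 21.5% and 21.6% of all genes. These genes are short (median span 5370 bp), and over the shortest span class the shares were 28.1% and 12.2%. Of the 82 subunits, 62 lay below the median of their span class. The median log2FC of the subunits was −0.17 (SD between replicates 0.129), −0.09 relative to genes of similar span, and −0.06 without Epi-WT replicate 2. *ndufa4*, a small subunit of the chain, had 416 and 470 in Epi-WT and 285 and 254 in Epi-Mut (log2FC −0.71, SE 0.22, adjusted P=0.368). *cox7a1* of cytochrome oxidase had 432 and 494 against 286 and 337. *ndufa1*, another small subunit of the first complex, had 411 and 527 against 319 and 309, and *cox4i1l* of cytochrome oxidase had 175 and 70 against 51 and 63.

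Mitochondrial ribosomal proteins were similar, with 66 of 74 negative, a median of −0.23 (SD 0.207) and −0.17 relative to genes of similar span. In 31.1% both Epi-Mut libraries were below both Epi-WT libraries and in 5.41% above, against 28.1% and 12.2% over the shortest span class. Their summed values were 27461 and 34421 in Epi-WT and 28834 and 25075 in Epi-Mut, so the genotypes overlapped. Without Epi-WT replicate 2 the median was −0.08. In CMs the median log2FC was −0.54 for these genes and −0.33 for the respiratory chain and ATP synthase subunits. Over the shortest span class it was −0.27 in CMs. *mrps33* of the small subunit had 317 and 414 against 243 and 179. Cytosolic ribosomal proteins, with 79 of 82 negative and a median of −0.09, had a median of 0.00 relative to genes of similar span. *rpl3* had 2129 and 2378 against 2262 and 2124, so the genotypes overlapped, and *rpl4* had 1785 and 2061 against 1909 and 1791. Lysosome and autophagy genes, which degrade cellular material, had 44 of 57 negative and 0 called. In 38.6% of them both mutant libraries were below, against 21.5% of all genes. Their median was −0.14 (SD 0.0756), −0.12 relative to genes of similar span and between −0.21 and −0.10 over the alternatives. In CMs their median was −0.03. *atp6ap1b*, an accessory subunit of the proton pump of lysosomes, had 1171 and 1265 in Epi-WT and 559 and 563 in Epi-Mut. It narrowly failed in EpiCs (log2FC −1.12, SE 0.19, adjusted P=0.0715) and was called lower in CMs, with 692 and 730 in CM-WT and 264 and 298 in CM-Mut (adjusted P=0.0397). *sqstm1*, the autophagy receptor p62, had 601 and 577 against 419 and 370. *tpp1*, a lysosomal peptidase, had 502 and 453 against 380 and 250, and *grna*, a granulin gene, had 0 and 1 against 35 and 8.

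Among 53 TCA cycle and fatty acid oxidation enzymes the median was −0.07 and 0 were called. *cpt1b*, which admits fatty acids to the mitochondrion, had 781 and 768 in Epi-WT and 1193 and 1362 in Epi-Mut (log2FC 0.72, SE 0.15, adjusted P=0.156), while *pdk2b*, a kinase that restrains pyruvate oxidation, had 2158 and 1808 against 1237 and 1166 (log2FC −0.72, adjusted P=0.358). *mdh1ab*, a malate dehydrogenase, had 154 and 182 against 114 and 85, and *sdhda*, a subunit of succinate dehydrogenase, had 0 and 0 against 8 and 7. Of 33 glycolysis genes, 0 were called and 4 had P under 0.05 before adjustment, all higher. The median of the list was −0.05, with 14 positive and 19 negative. Both Epi-Mut libraries were above both Epi-WT libraries in 24.2% and below in 24.2%, against 21.6% and 21.5% of all genes. *pfkma*, a muscle phosphofructokinase, had 0 and 40 against 169 and 252. *pfkpa*, another phosphofructokinase, had 376 and 240 against 418 and 468, and *pkmb*, a pyruvate kinase, had 11 and 25 against 46 and 36. *slc2a1a*, a glucose transporter, was at 0 in both Epi-WT libraries and at 8 and 10 in Epi-Mut, at least 3.59-fold higher (adjusted P=0.138). Cholesterol and fatty acid synthesis genes (40 tested, median 0.06) and 29 hypoxia response genes (median 0.04) had 0 calls. Of the synthesis genes, *elovl1a*, a fatty acid elongase, had 210 and 97 against 68 and 30, *acsl1a*, which activates fatty acids, had 1047 and 860 against 717 and 713, and *acacb*, an acetyl-CoA carboxylase, had 523 and 485 against 729 and 720. Of the hypoxia genes, *egln3*, a prolyl hydroxylase that marks HIF proteins for decay, had 85 and 104 against 35 and 13, and *p4ha1b*, a collagen prolyl hydroxylase, had 2139 and 2018 against 1276 and 1386. *hif1al*, also of this list, had 3183 and 2820 against 4042 and 4183. Lipid binding and lipoprotein receptor genes (22 tested, median 0.15, between −0.07 and 0.17 over the alternatives) had 0 calls. Among them *fabp3*, a fatty acid binding protein, had 659 and 723 against 532 and 304, *pnpla2*, a triglyceride lipase, had 85 and 79 against 51 and 33, and *vldlr*, a lipoprotein receptor, had 297 and 204 against 386 and 380.

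**Figure D5:**
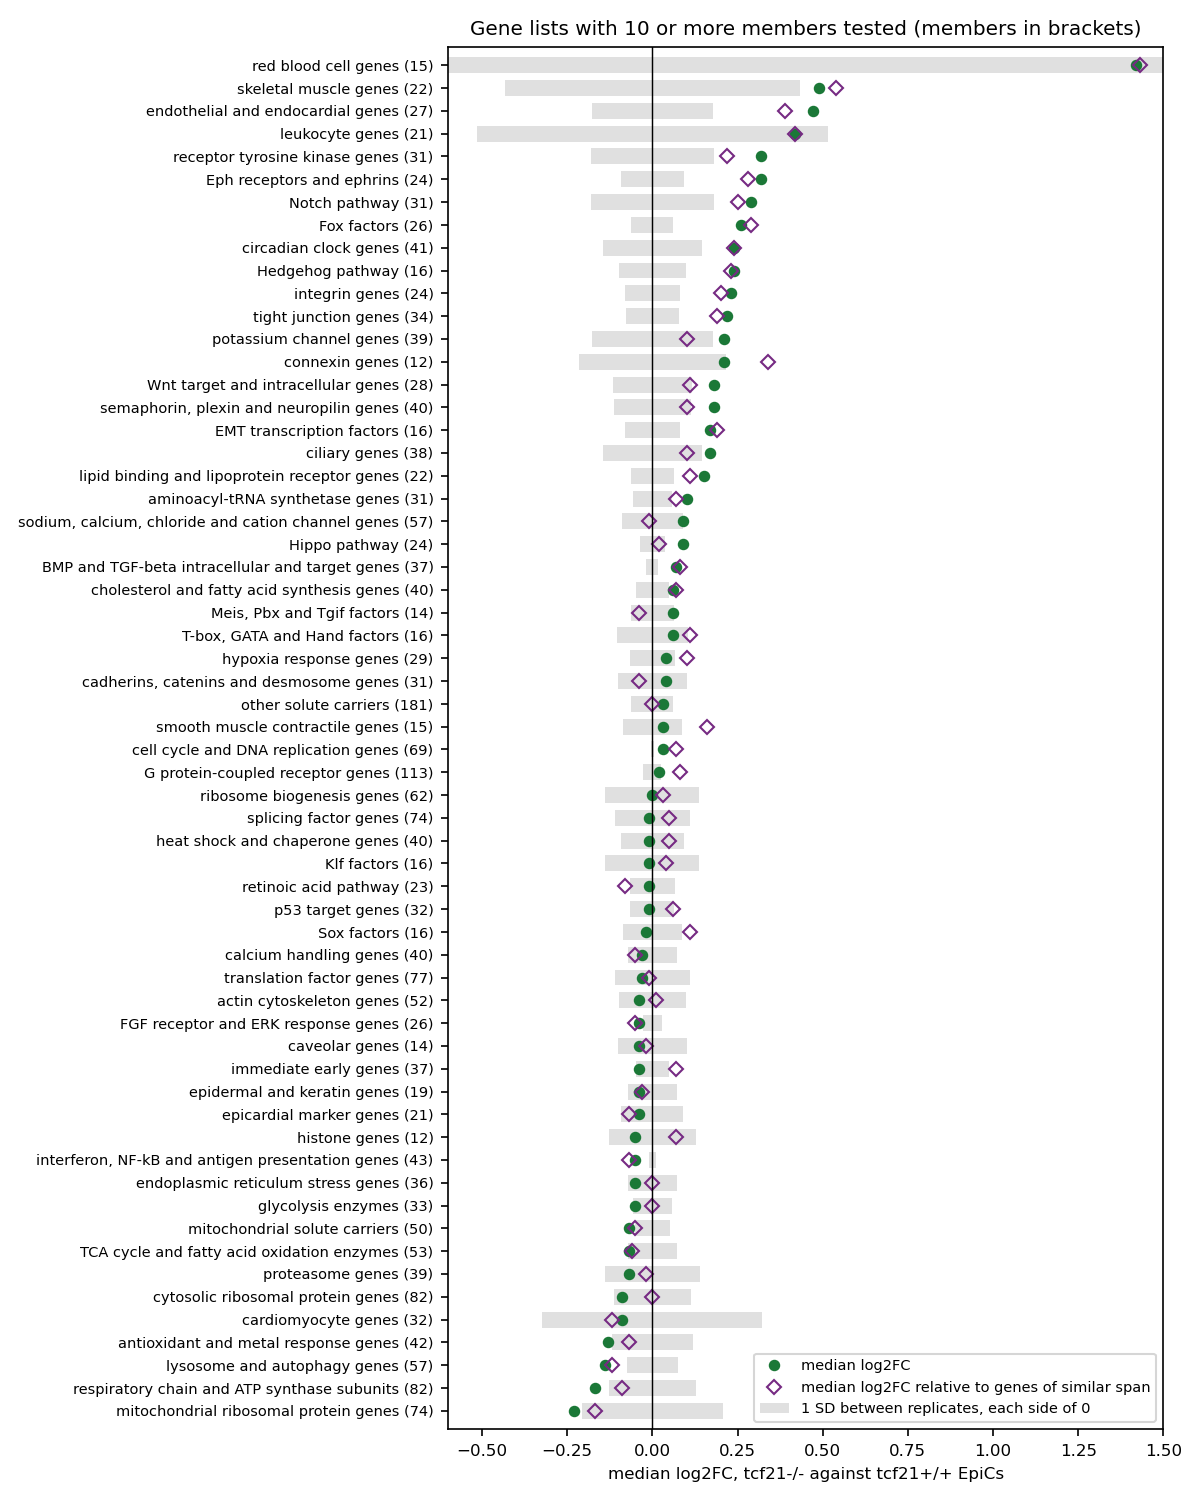
Median log2FC between tcf21-/- and tcf21+/+ EpiCs of each gene list with 10 or more members tested (filled circles), and the same relative to genes of similar span (open diamonds), with a grey bar of 1 SD between replicates on each side of 0. The bar of the red blood cell genes, with an SD of 2.02, runs past the axis. Fox factors, Eph genes and Hedgehog genes lie right of their bars on both measures, and lysosome genes lie left of theirs. Each SD rests on 2 libraries a group, so a place outside a bar is no test.

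Transcription factors of the Fox family, winged-helix proteins, had a median log2FC of 0.26 (SD 0.0615) over 26 genes, with 20 positive and 0 called. In 53.8% of them both Epi-Mut libraries were above both Epi-WT libraries, against 21.6% of all genes. Relative to genes of similar span the median was 0.29, and over the alternatives it lay between 0.26 and 0.34. In CMs the median of the family was 0.21. *foxo3b*, a factor restrained by insulin signalling, had 3141 and 2972 in Epi-WT and 3767 and 3745 in Epi-Mut (log2FC 0.30, SE 0.12, adjusted P=0.573). *foxo1a*, of the same group, had 134 and 49 against 168 and 196. *foxc1b*, a mesenchymal factor, had 2005 and 1981 against 2368 and 2462. The log2FC of the family ran from −0.50 to 3.26, the latter for *foxh1* at low values (19 and 0 against 58 and 30).

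T-box, GATA and Hand factors, several of which set the identity of heart chambers, had a median of 0.06 over 16 genes. Besides *tbx5a*, the chamber repressors *tbx2a* and *tbx2b* had groups that did not overlap, in the other direction. *tbx2a* had 215 and 187 in Epi-WT and 367 and 408 in Epi-Mut (log2FC 0.95, SE 0.30, adjusted P=0.387), and *tbx2b* had 573 and 504 against 923 and 868 (log2FC 0.73, SE 0.30, adjusted P=0.558). Sox factors (16 tested, median −0.02) had members in both directions. *sox6* had 3810 and 3442 against 2487 and 2531 (adjusted P=0.328), and *sox7*, a factor of endothelium, had 370 and 700 against 196 and 128 (adjusted P=0.489). Its relatives *sox17* and *sox18* had 48 and 62 against 0 and 13 and 5 and 4 against 51 and 15. Of 16 transcription factors of the epithelial-to-mesenchymal transition, 0 had P under 0.05 before adjustment. *snai2* had 3758 and 3948 against 3989 and 4065, and *tcf3b*, an E protein, had 2572 and 1618 against 2493 and 3186. Hox genes (6 tested), Meis, Pbx and Tgif factors (14 tested) and Klf factors (16 tested) had medians between −0.01 and 0.07. *hoxb3a* had 1699 and 2022 against 1770 and 2025, and *hoxb2a* had 440 and 647 against 533 and 628. *meis1b* had 3658 and 3847 against 3935 and 3837, and its partner family member *pbx4* had 3069 and 3324 against 3494 and 3248. The values of *hoxb3a*, *hoxb2a*, *meis1b* and *pbx4* overlapped between the genotypes. Those of *klf7a* (206 and 270 against 80 and 138) and *klf11a* (404 and 296 against 199 and 226) did not, which is why these genes were named. Of the 16 Klf factors, both Epi-Mut libraries were above both Epi-WT libraries in 6.25% and below in 25%. Of the 14 Meis, Pbx and Tgif factors, both Epi-Mut libraries were above both Epi-WT libraries in 28.6% and below in 35.7%. Over all genes these shares were 21.6% and 21.5%. Of 37 immediate early genes, 1 was higher and 2 were lower with P under 0.05 before adjustment, and *nr4a1*, a nuclear receptor induced by many stimuli, had 1157 and 1135 against 788 and 662 (adjusted P=0.361). *egr2a*, a zinc finger factor, had 1325 and 1074 against 869 and 728, and *csrnp1a* had 800 and 684 against 1175 and 1288.

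Retinoic acid is made by the epicardium and acts through nuclear receptors. Of 23 genes of the pathway, 0 were called and the median was −0.01, with members on both sides. *cyp26b1*, which degrades retinoic acid, had 101 and 66 in Epi-WT and 340 and 218 in Epi-Mut (log2FC 1.72, SE 0.37, adjusted P=0.157). *rarga*, a receptor, had 1091 and 1465 against 1846 and 1687 (adjusted P=0.581). *crabp1b*, which binds the ligand in the cytoplasm, had 389 and 407 against 105 and 65 (log2FC −2.25, SE 0.70, adjusted P=0.361), and *dhrs3b*, which turns retinal back to retinol, had 623 and 626 against 297 and 386 (log2FC −0.88, SE 0.21, adjusted P=0.215). These genes were named because their genotypes did not overlap, and none passed the adjustment. Over the 23 genes both Epi-Mut libraries were above both Epi-WT libraries in 21.7% and below in 21.7%. Over all genes the shares were 21.6% and 21.5%, so the list did not differ from them.

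In the Wnt pathway, *znrf3* encodes a ubiquitin ligase that removes Frizzled receptors from the membrane. It had 65 and 59 in Epi-WT and 365 and 357 in Epi-Mut, with replicates close together (log2FC 2.52, SE 0.44, adjusted P=0.0814). CM values of *znrf3* were 68 and 156 in CM-WT and 391 and 266 in CM-Mut (adjusted P=0.235). *nkd1*, an inhibitor that is itself a target of the pathway, had 533 and 536 against 883 and 926 (adjusted P=0.383), and *tcf7l1a*, a repressor of targets, had 3137 and 3404 against 1971 and 2135 (log2FC −0.67, SE 0.15, adjusted P=0.161). Over 28 Wnt genes 0 were called and the median was 0.18, or 0.11 relative to genes of similar span.

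Hedgehog signalling passes from Patched through Smoothened to Gli factors. Of 16 genes 14 were positive and 0 had P under 0.05 before adjustment. In 56.2% both Epi-Mut libraries were above both Epi-WT libraries, against 21.6% of all genes. The median was 0.24 (SD 0.0986), 0.23 relative to genes of similar span and 0.11 without Epi-WT replicate 2. In CMs the median of the list was 0.57. *boc*, a co-receptor, had 4279 and 3810 against 4343 and 4452. *smo*, the transducer, had 2186 and 2019 against 2245 and 2479, *cdon*, another co-receptor, had 3318 and 2951 against 3959 and 4180, and *gli1*, a target of the pathway, had 19 and 39 against 82 and 84 (adjusted P=0.679). The higher values were thus small for each gene, and none was called.

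*id4* was the only one of 37 BMP and TGF-beta genes called, and 0 of the Notch, FGF and Hippo genes were. Both Epi-Mut libraries were above both Epi-WT libraries in 35.1% of the BMP and TGF-beta genes and in 50% of the Hippo genes. The share was 29.0% of the Notch genes and 15.4% of the FGF and ERK genes, against 21.6% of all genes. In the same order, both Epi-Mut libraries were below in 13.5%, 20.8%, 9.68% and 26.9%, against 21.5% of all genes. Relative to genes of similar span the medians of these lists were 0.08, 0.02, 0.25 and −0.05. In the Notch pathway (31 genes, median 0.29, SD 0.18, and 0.12 without Epi-WT replicate 2) the receptor gene *notch1a* had 3 and 2 in Epi-WT and 116 and 32 in Epi-Mut (adjusted P=0.27). *tgfbr3*, the co-receptor betaglycan, had 605 and 523 against 845 and 868 (log2FC 0.61, SE 0.21, adjusted P=0.437). *smad1*, which carries the BMP signal to the nucleus, had 713 and 836 against 1070 and 1109, and *acvr1l*, a type I receptor, had 1342 and 886 against 1468 and 1633. *spred2a*, an inhibitor of ERK signalling, had 793 and 691 against 435 and 406 (log2FC −0.82, SE 0.24, adjusted P=0.329), and *il17rd*, another antagonist of FGF receptors, had 78 and 53 against 144 and 209. In the Hippo pathway, which restrains growth, *vgll4b* had 993 and 662 against 520 and 467 (adjusted P=0.476) and the kinase gene *taok1a* had 567 and 694 against 979 and 1285 (adjusted P=0.35). Medians were 0.07 for BMP and TGF-beta genes, −0.04 for 26 FGF and ERK genes and 0.09 for 24 Hippo genes.

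Of 31 receptor tyrosine kinase genes, 7 were higher and 1 was lower with P under 0.05 before adjustment, and 0 were called. The median was 0.32 (SD 0.18), or 0.22 relative to genes of similar span. In 48.4% both mutant libraries were above, against 21.6% of all genes. *ret*, the receptor of GDNF ligands, had 0 and 1 in Epi-WT and 51 and 37 in Epi-Mut (adjusted P=0.0814), and *ntrk2a*, a neurotrophin receptor, had 27 and 4 against 197 and 107 (adjusted P=0.301). *ret* and *ntrk2a* were at 0 in all CM libraries. *tie1*, an endothelial receptor, had 19 and 44 against 184 and 196 (log2FC 2.67, SE 0.78, adjusted P=0.33). *flt4*, the receptor of VEGFC, had 742 and 451 against 20 and 17 (log2FC −4.90, SE 1.6, adjusted P=0.404). The CM values of *flt4*, 52 and 3 in CM-WT and 0 and 29 in CM-Mut, entered this SE.

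Eph receptors and ephrins, which sort cells by contact, had a median of 0.32 (SD 0.0914) over 24 genes, 0.28 relative to genes of similar span and between 0.21 and 0.52 over the alternatives. Of these, 7 were higher and 1 was lower with P under 0.05 before adjustment, and 0 were called. In CMs the median of the list was 0.32. *epha4l* and *epha6*, receptors of the family, had 30 and 14 against 63 and 80 and 64 and 27 against 158 and 130. Of the ephrin B3 paralogs, *efnb3a* had 175 and 101 in Epi-WT and 318 and 363 in Epi-Mut (log2FC 1.35, SE 0.35, adjusted P=0.268), and *efnb3b* had 75 and 128 against 31 and 57 (log2FC −1.20, SE 0.39, adjusted P=0.409). Of 40 semaphorin, plexin and neuropilin genes, 4 were higher and 0 lower with P under 0.05 before adjustment, with a median of 0.18, or 0.10 relative to genes of similar span. *sema3fb*, a secreted repellent, had 1419 and 1089 against 2176 and 2802 (adjusted P=0.478). *sema6e* and *sema4c*, membrane-bound semaphorins, had 1018 and 619 against 1563 and 1731 and 630 and 402 against 703 and 859, and *plxnc1*, a plexin receptor, had 26 and 12 against 167 and 42. G protein-coupled receptors (113 tested, median 0.02) had 7 higher and 11 lower at that level and 0 called. *ackr4b*, a receptor that takes up chemokines, had 202 and 161 against 13 and 10 (log2FC −3.87, SE 1.3, adjusted P=0.397). *npy1r*, a neuropeptide Y receptor, had 40 and 8 against 0 and 0. The adhesion receptor genes *adgrb1b* and *adgrf6* had 10 and 0 against 79 and 52 and 0 and 0 against 42 and 3.

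Among 12 connexins *gja5b* was called lower, as described, and its paralog *gja5a* was at 0 in both Epi-WT libraries and at 41 and 10 in Epi-Mut, at least 10.2-fold higher with an adjusted P of 0.0572. The CM values of *gja5a* were 374 to 526. *gja3*, another connexin, had 8 and 5 against 3 and 0. Among 34 tight junction genes (0 called, median 0.22, between −0.02 and 0.27 over the alternatives and lowest with genes of a mean of at least 1 included), *cgna*, a cingulin at the cytoplasmic face of the junction, had 371 and 102 in Epi-WT and 24 and 1 in Epi-Mut (adjusted P=0.268). Its paralog *cgnb* was at 0 in Epi-WT and at 20 and 27 in Epi-Mut, at least 9.36-fold higher (adjusted P=0.0572). The polarity genes *patj* and *pard6gb* had 138 and 89 against 218 and 318 and 1487 and 1542 against 1869 and 2369. Levels of *gja5a* and *cgnb* in EpiCs were low, and the difference between paralogs was not tested.

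Among 31 cadherin, catenin and desmosome genes (median 0.04, 0 called), *cdh15* had 1036 and 671 in Epi-WT and 162 and 95 in Epi-Mut (log2FC −2.74, SE 0.90, adjusted P=0.411). *cdh13*, a cadherin with a lipid anchor, had 20 and 11 against 115 and 93 (log2FC 2.72, SE 0.49, adjusted P=0.0882) and 563 to 1440 in CMs. The protocadherin genes *pcdh7b* (706 and 379 against 1067 and 1549) and *pcdh10a* (135 and 66 against 234 and 328) were also higher in both mutant libraries. Of 24 integrin genes 0 were called, 3 were lower and 0 higher with P under 0.05 before adjustment, and the median was 0.23, with 17 positive, and 0.09 without Epi-WT replicate 2. *itgae.1*, an alpha subunit, had 11 and 33 against 0 and 2, and *itgb2*, a beta subunit of leukocytes, had 15 and 6 against 0 and 0. In the actin cytoskeleton (52 genes, median −0.04, 0 called), the crosslinking protein gene *flna* had 3932 and 4919 in Epi-WT and 7140 and 8862 in Epi-Mut (log2FC 0.85, SE 0.29, adjusted P=0.419). *ezrb*, an ezrin that ties actin to the membrane, had 295 and 376 against 622 and 561 (log2FC 0.82, SE 0.20, adjusted P=0.209). *flnca*, a muscle filamin, had 427 and 265 against 541 and 553, and *actr3b*, of the Arp2/3 complex, had 13 and 10 against 0 and 0. Smooth muscle contractile genes, with 15 tested, had 0 with P under 0.05 before adjustment, and *myh11a* had 6482 and 5844 against 7108 and 8153 and *mylka*, myosin light chain kinase, 3886 and 3608 against 4537 and 5021. Ciliary genes (38 tested, median 0.17, and −0.08 without Epi-WT replicate 2) and caveolar genes (14 tested, median −0.04) had 0 calls. Axonemal dynein genes were low in both genotypes, with *dnah11* at 42 and 54 against 7 and 0 and *dnah5* at 3 and 4 against 0 and 0. *ift88*, of intraflagellar transport, had 268 and 337 against 412 and 583, and *ehd4*, of membrane trafficking, had 123 and 76 against 229 and 175.

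Of 43 interferon, NF-kB and antigen presentation genes, *mhc1uba* was called higher and 0 were called lower. Before adjustment, with P under 0.05, 3 were higher and 8 lower, and the median was −0.05. *c3a.6*, a complement C3 gene, had 1237 and 742 in Epi-WT and 45 and 35 in Epi-Mut (log2FC −4.56, SE 0.70, adjusted P=0.0565), and *c3a.1*, from the same family, had 552 and 264 against 136 and 67 (log2FC −1.99, SE 0.76, adjusted P=0.521). Both were at 0 in CMs, and as members of a gene family they can share reads, which were left out of the counts. *psme2*, a subunit of the proteasome activator, had 158 and 117 against 34 and 43 (adjusted P=0.437), and *psmb10*, a catalytic subunit of the immunoproteasome, had 271 and 357 against 148 and 181 (adjusted P=0.392). The 39 proteasome genes, *psmb10* included, had a median of −0.07, and of −0.02 relative to genes of similar span.

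Of 69 cell cycle and DNA replication genes 0 were called, 1 was higher and 2 were lower with P under 0.05 before adjustment, and the median was 0.03. *anln*, an actin-binding protein of the cleavage furrow, had 1024 and 819 in Epi-WT and 1439 and 1757 in Epi-Mut (log2FC 0.80, SE 0.20, adjusted P=0.247), while *lig1*, the replicative DNA ligase, had 645 and 663 against 344 and 431 (log2FC −0.76, SE 0.23, adjusted P=0.352). *gins1*, of the replicative helicase, had 411 and 453 against 268 and 231. p53 targets (32 genes, median −0.01), heat shock and chaperone genes (40 genes, median −0.01) and endoplasmic reticulum stress genes (36 genes, median −0.05) had 0 called. *ahsa1a*, an activator of the chaperone Hsp90, had 70 and 45 against 250 and 180 (log2FC 1.90, SE 0.32, adjusted P=0.0684). *hsf1*, the heat shock factor, had 353 and 259 against 478 and 517, and *atf6*, a sensor of the unfolded protein response, had 963 and 936 against 690 and 589. Of the p53 list, *pmaip1*, which promotes apoptosis, had 949 and 918 against 578 and 450, and *mdm4*, an inhibitor of p53, had 1285 and 1091 against 1452 and 1674. Antioxidant and metal response genes had a median of −0.13 over 42 genes, and 0.01 without Epi-WT replicate 2. *fth1b*, a ferritin heavy chain that stores iron, had 206 and 321 against 78 and 148 (log2FC −1.25, SE 0.36, adjusted P=0.32). *gpx3*, a glutathione peroxidase, had 2 and 7 against 26 and 27, *mt2*, a metallothionein, had 0 and 0 against 5 and 17, and *nfe2l1b*, a leucine zipper factor, had 799 and 805 against 1024 and 1442. Splicing factors (74 genes), translation factors (77 genes), ribosome biogenesis genes (62 genes) and histones (12 genes) had medians between −0.05 and 0.00 and 0 calls. The splicing factor genes *srsf1a*, *srsf6a* and *hnrnpm* had 1304 and 1345 against 997 and 825, 463 and 583 against 326 and 327 and 488 and 774 against 393 and 336. *eif4ebp3*, which restrains the cap-binding protein, had 417 and 449 against 235 and 209. The initiation factor genes *eif4g3b* and *eif4enif1* had 387 and 404 against 625 and 639 and 456 and 402 against 687 and 803. *nol10* and *rrp12*, of ribosome assembly, had 550 and 669 against 885 and 840 and 1228 and 1222 against 1475 and 1769, and the histone gene *h3f3c* had 2444 and 2877 against 2660 and 2553. Aminoacyl-tRNA synthetase genes (31 tested, median 0.10) also had 0 calls, with *eprs1* at 2059 and 1955 against 2609 and 3030 and *fars2* at 25 and 51 against 71 and 87.

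Of 39 potassium channel genes 2 were higher and 5 lower with P under 0.05 before adjustment, and of 57 sodium, calcium, chloride and cation channel genes 4 were higher and 5 lower, with 0 called in either list. *kcnj5*, an inward rectifier of the atrium in mammals, had 16 and 10 in Epi-WT and 4 and 0 in Epi-Mut, and 546 to 959 in CMs. *cacnb4a*, a calcium channel subunit, had 6 and 14 against 39 and 43 (log2FC 2.03, SE 0.46, adjusted P=0.18). The potassium channel genes *kcnd3*, *kcnh8* and *kcnj2a* had 24 and 2 against 0 and 0, 0 and 4 against 27 and 16 and 0 and 0 against 6 and 13. *asic4b*, of the acid-sensing family, had 12 and 11 against 52 and 119, *cacna1aa*, a calcium channel pore, had 27 and 12 against 2 and 6, and *clcnk*, a chloride channel, had 4 and 10 against 0 and 0. Most of these channels were read at low values in both genotypes. *slc16a4*, a monocarboxylate transporter, had 16 and 7 against 122 and 78 (log2FC 3.08, SE 0.50, adjusted P=0.0572), with 162 and 193 in CM-WT and 475 and 546 in CM-Mut. Of 50 mitochondrial and 181 other solute carriers 0 were called, with medians of −0.07 and 0.03. *slc25a10*, the dicarboxylate carrier of mitochondria, had 491 and 443 against 854 and 781. *slc25a44b*, *slc25a22a* and *slc25a47b* of the same family had 489 and 601 against 342 and 307, 109 and 79 against 46 and 20 and 0 and 0 against 3 and 9. *slc6a5*, a glycine transporter, had 39 and 51 against 10 and 1. Calcium handling genes (40 tested, median −0.03) also had 0 calls, with *s100a10a* at 45 and 50 against 12 and 10 and the kinase gene *camk2b1* at 433 and 241 against 526 and 498. *calm1b*, a calmodulin, had 683 and 927 against 367 and 368 (log2FC −1.11, SE 0.20, adjusted P=0.0913).

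Markers of other cell types were read in all EpiC libraries, with 0 called except in the cardiomyocyte list. The summed value of 27 endothelial and endocardial genes was 12197 and 10891 in Epi-WT and 11218 and 10521 in Epi-Mut, so the totals overlapped. Of these, 6 were higher and 3 lower with P under 0.05 before adjustment, and *tie1* was high in both mutant libraries, as given above. Their median log2FC was 0.47 and was −0.12 without Epi-Mut replicate 1, the library with the highest values of *clec14a* (164 against 27 in the other mutant library) and *pecam1* (56 against 11). *kdrl*, a VEGF receptor abundant in these libraries, had 2140 and 1452 against 1704 and 1356. Skeletal muscle genes (22 tested) summed to 8621 and 7822 in Epi-WT and to 12335 and 8894 in Epi-Mut, against 15353 to 23863 in CMs. The list is thus not particular to skeletal muscle in these hearts. In EpiCs 6 were higher and 0 lower with P under 0.05 before adjustment. *myhz1.1*, a fast muscle myosin, had 14 and 34 against 136 and 166 (log2FC 2.72, SE 0.66, adjusted P=0.226). The parvalbumin genes *pvalb4* and *pvalb2* had 8 and 22 against 110 and 88 and 14 and 11 against 33 and 79, and *casq1b*, which stores calcium, had 5 and 0 against 8 and 21. CM libraries had 1377 to 1887 for *casq1b* and 193 to 462 for *pvalb2*, but 0 to 10 for *pvalb4* and 10 to 20 for *myhz1.1*. The median of the muscle list was 0.49, and −0.07 without Epi-Mut replicate 1. Leukocyte genes (21 tested) summed to 675 to 868 in all 4 EpiC libraries, and *ptprc*, *c1qb*, *cxcr3.2* and *ccr9a* were at 0 in each. *irf8* (331 and 261 against 455 and 531) and *cxcr4b* (340 and 362 against 200 and 126) made up most of that sum. *marco*, a receptor of macrophages, had 0 and 0 against 47 and 6, and *lcp1*, a plastin of leukocytes, had 1 and 0 against 7 and 31. Globin values were highest in Epi-Mut replicate 2, with *hbae3* at 14 and 5 in Epi-WT and 1 and 206 in Epi-Mut. The median of 15 red blood cell genes was 1.42, and −0.03 without Epi-Mut replicate 2. *cahz*, the carbonic anhydrase of these cells, had 0 and 0 against 22 and 74, and *nt5c2l1*, a nucleotidase, had 147 and 96 against 12 and 35. Of 9 neuron and glia genes, 5 were positive and 4 negative (median 0.10), and of 5 neural crest and pigment cell genes, 2 and 3 (median −0.01). *elavl4*, a neuronal RNA-binding protein, had 223 and 235 against 924 and 618 (log2FC 1.72, SE 0.45, adjusted P=0.268). *ltk*, a kinase of pigment cell precursors, had 23 and 14 against 94 and 110, and the liver genes *tfa* and *rbp4* had 1625 and 1763 against 1453 and 1246 and 1152 and 1298 against 1267 and 1221. Of 19 epidermal and keratin genes, 15 were negative and 4 positive, with a median of −0.04. In 31.6% of them both Epi-Mut libraries were below both Epi-WT libraries and in 15.8% above, against 21.5% and 21.6% of all genes. Among the positive ones, *krtt1c19e*, a keratin of skin, had 1 and 0 in Epi-WT and 38 and 214 in Epi-Mut (adjusted P=0.0853). *krt5* had 1 and 1 against 10 and 136, so the differences of these 2 genes were larger in Epi-Mut replicate 2. The part that cells of these kinds took in the gene differences was not tested.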

How the data were processed

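RNA-seq libraries of sorted EpiCs and CMs (96 hpf) were analysed, 2 for each cell type and genotype (groups and replicate numbers from the sample labels). According to the methods, RNA was amplified with a SMART-Seq kit, which does not mark strand. The authors trimmed reads with Trimmomatic 0.39, aligned them to danRer11 (GRCz11, Ensembl release 99) with STAR 2.7.3a, counted exonic reads with featureCounts 1.6.5, leaving out reads of several genes or places, and used DESeq2 1.26.0 (versions per the submitters' processing notes). The deposited signal values are whole numbers, made from these counts with a single scaling factor in each library. In EpiC libraries 1 read was worth less than 1 unit, so whole reads could not be recovered. The size of 1 read (found in 9 of 9 simulated libraries within 0.002) gave the estimated depth, 6.44 to 11.4 M reads, and a floor of 3 reads.

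log2(value + 1) was tested with limma 3.58.1 in R 4.3.3 (trend, all 8 libraries in 1 fit, two-sided, Benjamini–Hochberg over 16077 genes with a mean of at least 10). The fit was tested on simulated data. With the pseudocount, fold changes of low genes come out too small. Where a gene varies near 0 in CMs, its SE in EpiCs is widened, and a missing call says little. Where a gene is at 0 in every CM library, as *gad1b* and *crhbp* were, the CM libraries add no spread. This can narrow the SE in EpiCs and favour a call. The methods give cell numbers per biological replicate. Labels do not say whether replicates came from separate larvae, so P-values measure the spread between these libraries. Named are all called genes, in each list the 4 members with the largest absolute log2FC among those without overlap and with an unadjusted P under 0.05 (otherwise the 2 most abundant), and *tcf21*, except for a gene that is not reported here. Other list members named (among them *bnc2*, *sema3d*, *tbx18*, *wt1b*, *aldh1a2*, *myl7*, *tnnt2a*, *ttn.2*, *arntl1a*, *per1b*, *nr1d1*, *smo*, *gli1*, *foxc1b*, *kdrl*, *hbae3*, *irf8*, *cxcr4b* and the leukocyte genes at 0) were chosen after their values were seen. The members and lists were chosen with earlier results of these data known, so no list was tested. Alternatives were other pseudocounts, filters, fold change limits, scalings and spread estimates, library weights, the EpiC libraries alone, a block for the replicate number, and the omission of each library in turn. The comparison with genes of similar span was chosen after seeing the data. Tables and figures used Python 3.11.15, pandas 2.3.3, numpy 2.4.6 and matplotlib 3.10.9.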

Additional observations from a re-analysis of the deposited data

How the results depend on the processing

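The 24 genes lower and 7 higher in tcf21-/- EpiCs became 78 and 24 with a pseudocount of 10, 85 and 48 with library quality weights and 63 and 25 after quantile normalization, and in each of these 3 fits all 24 lower genes were still called, as were 5, 7 and 7 of the 7 higher ones. They became 8 and 1 with the replicate block. The labels do not say whether same-numbered libraries share more than a number. The correlation of their deviations was −0.036 between Epi-WT and Epi-Mut, which cannot decide this. The block is therefore not read as a paired comparison. With the EpiC libraries alone, 0 and 0 were called, where fewer libraries estimate the spread (P was under 0.05 before adjustment for 925 and 1060 genes). A pseudocount of 0.5 gave 15 lower genes, a fit without the abundance trend 33 lower and 21 higher genes (10 of the 24 and 6 of the 7 among them), cyclic loess normalization 12 higher genes and median ratio scaling within cell types 4 higher genes. Leaving out 1 library gave 0 to 30 lower and 0 to 18 higher genes. The number of genes whose effect differed between EpiCs and CMs, 0, became 11 with a pseudocount of 10, 58 without the trend and 9 after quantile normalization, and 0 to 119 when 1 library was left out. The cause was not tested. The direction of the 31 called genes did not change in any of the 20 alternatives, and each gene was called in 5 to 13 of them. Given the lack of overlap, the direction could not change where a library was left out or only the spread estimate differed. It is thus no measure of stability. Of 64 list medians, 20 kept their sign in every alternative. By more than 1 SD between replicates, 43 moved in at least 1 alternative. In the main fit 31 lay farther from that of all genes than 1 SD between replicates, 27 relative to genes of similar span. This SD rests on 2 libraries a group, so a median can pass it without a genotype difference. These counts are therefore no test. Differences under a few reads, as in genes listed at 0, are not detectable at this depth.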
